A study of Mus musculus with 18 samples.

Results

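A set of 9 genes of fat cells and of lipid handling were followed through every assay of a mouse urinary bladder atlas: Adipoq, Retn, Cfd, Plin1, Cidec, Plin4, Fabp4, Lpl and Car3. They were chosen by name, and all 9 were present in every table, which list 27775 to 31053 genes for droplets and sections and 29214 for bulk RNA. All mice were C57BL/6, and the 18 samples fall into 11 groups. Dissociated whole bladder was profiled as single cells at 3 and 22 months (each label naming 3 males), at 12 months (2 libraries) and at 24 months, the last 3 libraries naming 2 females plus 2 males. Nuclei came from the same mix of sexes at 12 months. Cells of the detrusor alone, the muscular wall, came from 14-month females (3 named), and a detrusor-enriched preparation from 14-month mice of both sexes (2 and 2 named). Frozen sections on spatial arrays came from 22-month males (2 sections, 4 males in the label) and 14-month males (2 sections, 4 males in the label). Bulk RNA came from intact bladder (3 libraries) and from dissociated bladder (3 libraries) of 12-month females, 3 in the label. The labels do not say whether a library pools all the animals named or is 1 of them, so p-values measure the spread between these libraries, which may be technical.

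White adipocytes store triglyceride in a droplet coated by perilipins (Plin1) and enlarged by Cidec, and they secrete hormones such as adiponectin (Adipoq), resistin (Retn) and the complement protease adipsin (Cfd). Fabp4, a carrier of fatty acids, is best known from adipocytes but is also made by capillary endothelium and by epithelia. Lipoprotein lipase (Lpl) frees fatty acids from circulating lipoproteins, Plin4 coats small droplets in fat and muscle, and carbonic anhydrase 3 (Car3) is an abundant cytosolic protein of fat, muscle and liver. In the bladder, fat lies outside the muscle coat, and the urothelium, a layered epithelium sealed by uroplakins, lines the lumen.

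Promoter sequence is shown for the adipocyte-restricted members whose bulk levels fell together, and for Plin4, which fell less. Of the 9 members, 6 had a RefSeq promoter entry (build GRCm38.p6), with 7 entries because Cidec has 2 start sites; the entry printed for Cidec is its first. Each line gives the 150 bases before the annotated start, 5′ to 3′ on the gene's strand, with matches to CCAAT and to CANNTG (the E-box) in capitals; CCAAT was searched on both strands and reads ATTGG on the other. The bulk counts are per gene, so they do not say which start site was used.
Adipoq (chr16:23146386-23146535, plus strand): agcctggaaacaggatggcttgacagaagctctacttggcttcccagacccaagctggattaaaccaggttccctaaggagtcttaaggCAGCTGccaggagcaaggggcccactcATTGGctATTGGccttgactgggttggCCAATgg
Retn (chr8:3655620-3655769, plus strand): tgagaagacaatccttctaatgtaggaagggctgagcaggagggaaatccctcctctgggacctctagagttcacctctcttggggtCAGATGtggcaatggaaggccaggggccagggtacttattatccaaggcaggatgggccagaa
Cfd (chr10:79890703-79890852, plus strand): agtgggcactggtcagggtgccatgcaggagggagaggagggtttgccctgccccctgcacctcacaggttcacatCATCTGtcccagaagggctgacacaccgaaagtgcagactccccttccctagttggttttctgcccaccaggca
Plin1 (chr7:79732777-79732926, minus strand): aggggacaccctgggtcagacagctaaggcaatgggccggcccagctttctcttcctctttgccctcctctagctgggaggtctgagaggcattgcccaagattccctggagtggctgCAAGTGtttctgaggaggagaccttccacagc
Cidec (chr6:113435761-113435910, minus strand): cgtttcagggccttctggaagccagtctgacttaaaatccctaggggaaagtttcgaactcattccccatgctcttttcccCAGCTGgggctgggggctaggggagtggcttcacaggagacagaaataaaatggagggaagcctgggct
Plin4 (chr17:56109783-56109932, minus strand): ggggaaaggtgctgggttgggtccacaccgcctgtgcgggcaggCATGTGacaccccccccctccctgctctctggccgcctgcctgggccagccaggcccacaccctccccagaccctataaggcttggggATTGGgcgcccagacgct

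In the 250 bases before the start, CCAAT was found in 2 of 7 member entries (Adipoq with 3 matches and Plin4 with 1) and in 33.85% of 32851 promoters of that length. An E-box was found in 6 of 7 entries and in 66.22% of promoters, and TTNNGNAA, a loose form of the C/EBP pattern, in 4 of 7 and in 36.85%. TATAAA and AGGTCA, the latter the half-site of nuclear receptors, were in 0 of 7 member entries and in 12.37% and 14.02% of promoters. Every pattern was searched on both strands, and matches of different patterns can share bases. The matches describe letters in a window and say nothing about binding.

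The data differ in depth. Intact bulk libraries 1, 2 and 3 held 23083752, 68760791 and 25999123 counted reads, and the dissociated ones 28106085, 27029399 and 24192299. Droplet libraries held 5197910 to 55374101 UMIs (unique molecular identifiers), with medians of 1126.5 to 15042 per barcode, and the sections 21976101 to 32021223. The 2 male whole-bladder libraries have barcodes of 14 bases and a gene list of their own, so sex mix and library type cannot be told apart there. No more than 64 cell barcodes were shared by any pair of droplet libraries. Levels below are counts-per-million values (CPM) of a library, class or region; they are not adjusted for gene length, so they compare samples of 1 gene and not different genes.

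The first question was how each gene's share of the counted RNA changed when the bladder was dissociated into cells. For Adipoq, Retn, Cfd, Plin1 and Cidec the mean CPM after dissociation was 2.62% to 4.98% of the intact mean. That mean is carried by intact libraries 1 and 3. Against intact library 2 the gap was smaller: Retn stood at 0.902 CPM there and 0.148 to 0.537 CPM after dissociation, and Cfd at 12.6 and 0.703 to 4.13 CPM. The means of Plin4 and Fabp4 fell to 17.7% and 21.8%, Lpl rose, and Car3 did not pass the test. In all, 7 of 9 members were lower in dissociated bladder, 1 was higher and 1 was not called (edgeR's quasi-likelihood test, Benjamini-Hochberg adjusted p below 0.05, two-sided). Among all 16538 genes tested, 59.2% were called, 31.3% lower and 27.9% higher, so the contrast is broad. In bulk tissue, fewer cells of a type and less RNA per cell cannot be told apart.

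Among the secreted products, Adipoq measured 11.7, 5.22 and 28.0 CPM in intact libraries 1, 2 and 3 (270, 359 and 728 reads) and 0.463, 0.296 and 0.579 CPM in dissociated libraries 1, 2 and 3 (13, 8 and 14 reads). The groups did not overlap, and the log2 fold change (dissociated minus intact, edgeR) was -4.95 (SE 0.70, adjusted p = 0.000755). Retn measured 7.67, 0.902 and 10.2 CPM in intact tissue and 0.249, 0.148 and 0.537 CPM after dissociation. Intact library 2 was low, yet still above every dissociated library, and the edgeR change was -4.20 (SE 0.96, adjusted p = 0.00687). Cfd measured 69.9, 12.6 and 103 CPM in intact tissue and 2.13, 0.703 and 4.13 CPM after dissociation, again with no overlap and with intact library 2 lowest (edgeR -4.63, SE 0.91, adjusted p = 0.00433).

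The droplet proteins of adipocytes behaved alike. Plin1 measured 7.93, 2.49 and 17.4 CPM in intact tissue and 0.0356, 0.074 and 0.62 CPM after dissociation, the latter from 1, 2 and 15 reads. These groups did not overlap, and the edgeR change was -5.18 (SE 1.01, adjusted p = 0.00329); it was -7.21 without dissociated library 3, which holds most of the remaining reads. Cidec measured 9.75, 3.55 and 20.8 CPM in intact tissue and 0.534, 0.185 and 0.744 CPM after dissociation. Its groups did not overlap either (edgeR -4.42, SE 0.76, adjusted p = 0.0018).

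Plin4 and Fabp4 were even between intact libraries and fell less far in the mean. Plin4 measured 231, 238 and 219 CPM in intact tissue and 43.8, 36.5 and 41.7 CPM after dissociation, a change of -2.38 (edgeR, SE 0.10, adjusted p = 2.38e-06). Fabp4 measured 262, 249 and 299 CPM in intact tissue and 50.6, 50.1 and 76.2 CPM after dissociation, a change of -2.08 (edgeR, SE 0.19, adjusted p = 7.89e-05). Neither gene's groups overlapped. Among all genes tested, 67.9% had no overlap in either direction and 42.3% had none with dissociated libraries lower.

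Lpl measured 70.4, 64.0 and 97.0 CPM in intact tissue and 130, 114 and 98.7 CPM after dissociation; the groups just missed each other, between intact library 3 and dissociated library 3. The rise was 0.68 (edgeR, SE 0.17, adjusted p = 0.00975). Car3 measured 434, 343 and 516 CPM in intact tissue and 522, 423 and 606 CPM after dissociation, with overlapping groups and a change of 0.38 that was not called (edgeR, SE 0.19, adjusted p = 0.118). That call depends on the analysis: Car3 was called higher with DESeq2 (adjusted p = 0.0492) and, in edgeR, without dissociated library 2 (adjusted p = 0.036). It was also called in edgeR with the library number as a block (adjusted p = 0.00753), although the numbers are not shown to pair the libraries.

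**Figure D1:**
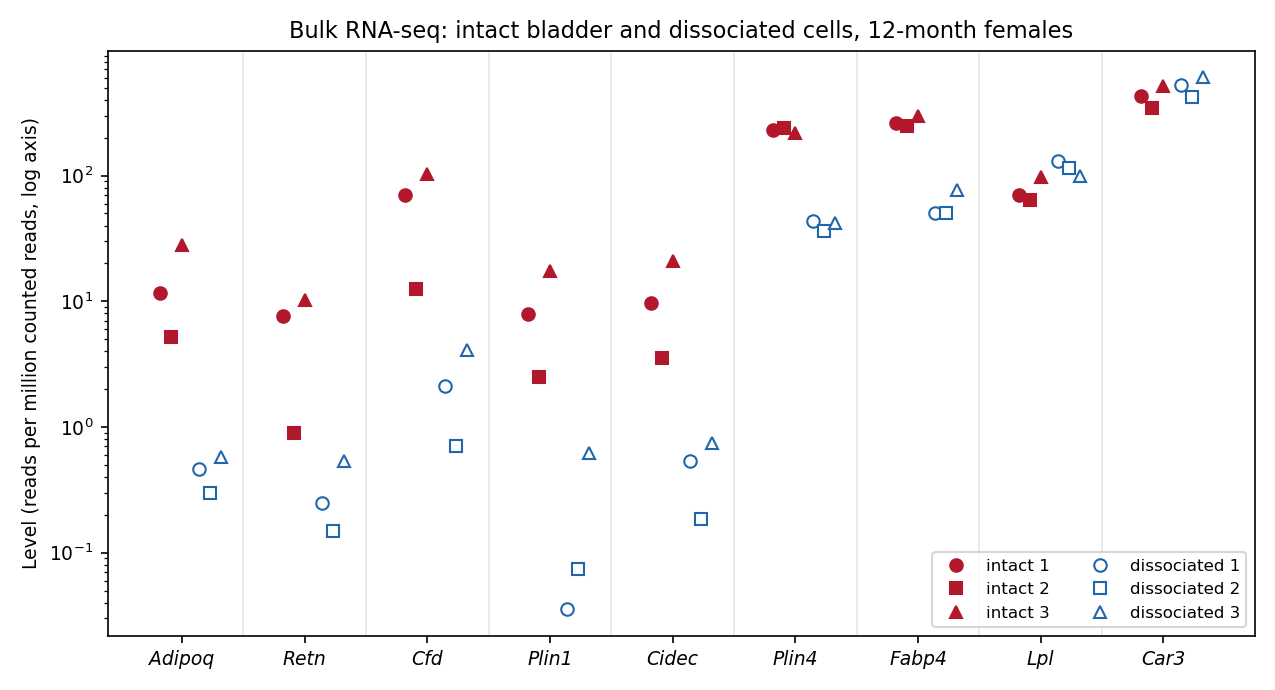
Level of each of the 9 genes in the 6 bulk libraries of 12-month females, in CPM on a log axis; each point is 1 library, filled red for intact and open blue for dissociated bladder, and the marker shape gives the library's number. Adipoq, Retn, Cfd, Plin1 and Cidec are spread across the intact libraries (Adipoq 5.22 to 28.0) and near 1 or below after dissociation except Cfd, whereas Plin4 and Fabp4 form tight groups, and Car3 overlaps.

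Marker genes of the bladder's cell types, summed per list, moved in the same contrast. The smooth muscle list (Myh11, Acta2 and 8 others) went from 42827 to 44615 CPM in intact libraries down to 2294 to 3482 CPM. The blood endothelial list went up, from 577 to 649 CPM to 970 to 1197 CPM, while Fabp4 fell. The urothelial list stood at 7804 to 8881 and 5678 to 8354 CPM, the fibroblast list at 14416 to 17582 and 25863 to 38066 CPM, and the macrophage or monocyte list at 882 to 986 and 1128 to 1506 CPM. A list of 15 further adipocyte genes, the members left out, stood at 537 to 607 and 284 to 345 CPM, with none of its genes at 0 in all libraries of a group. In that sum Slc2a4, a gene of fat and muscle, had a mean of 148 CPM in intact tissue and 10.1 CPM after dissociation. Pparg had means of 96.6 and 90.2 CPM, so the sum is no measure of adipocytes alone. The part of the list shifts in the members' changes was not tested.

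The 5 adipocyte-marker members also differed among the intact libraries, and all in the same order, which Fabp4, Lpl and Car3 shared. Library 3 was highest and library 2 lowest for Adipoq, Retn, Cfd, Plin1 and Cidec, with a ratio of highest to lowest from 5.36 for Adipoq to 11.3 for Retn. The genes compared were the 14841 with a mean of at least 1 CPM over the intact libraries and at least 10 reads in each. Of these, 36 (0.243%) differed by 5-fold or more, and the 5 members were among them. The median gene differed by a ratio of 1.14. The order of libraries 3, 1 and 2 was shared by 18.3% of the genes compared. This pattern was looked at after the values were seen.

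Lowering the limit to 4-fold and keeping that order gave 14 genes, the 5 members and 9 others. Among the others, Pck1, an enzyme of glyceroneogenesis, stood at 2.69, 1.35 and 10.2 CPM, Adig (adipogenin) at 1.08, 0.349 and 2.42 CPM, and Lgals12, a droplet-associated galectin, at 1.21, 0.567 and 2.42 CPM. Tshr, the thyrotropin receptor, stood at 1.69, 0.334 and 2.23 CPM, and Dlk2, a relative of the preadipocyte factor Dlk1, at 6.28, 3.81 and 17.1 CPM. The remaining 4 were Arc, an immediate-early gene, the mast cell proteases Cma1 and Mcpt4, and A530016L24Rik. The other genes of the lipid lists mostly did not share the pattern. The order 3, 1 and 2 was found in 0 of 4 further secreted factors, 1 of 10 adipogenic regulators, 4 of 17 lipogenesis genes, 3 of 11 uptake genes, 5 of 11 droplet genes, 5 of 9 insulin and catecholamine response genes and 1 of 7 carbonic anhydrases. A 4-fold difference was found in 1 droplet gene and 1 gene of the insulin and catecholamine list, and in none of the other 5 lists. After dissociation, Adipoq, Cidec, Retn and Cfd also ran in the order 3, 1 and 2. This rests on few reads, such as 14, 13 and 8 for Adipoq and 13, 7 and 4 for Retn. Fabp4, Car3 and the summed urothelial, blood endothelial and mesothelial lists ran in that order too, so it was not particular to fat genes. Its share over all genes was not counted after dissociation. Whether libraries of the same number share animals is not stated.

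Other genes of lipid metabolism did not follow the adipocyte-marker members as a body. Of 7 tested genes for adipocyte secreted factors, 5 were lower and 1 higher (median log2 change -4.20), against 31.3% lower and a median of -0.03 over all genes; 3 of the 5 are members, and the median is the value of the member Retn. The 4 non-members stood at -4.95 (Lep), -0.69 (Nrg4), -0.29 (Apln) and 0.86 (Rbp4). The others were Lep (leptin), at 1.04, 1.56 and 2.89 CPM in intact tissue and 0, 0 and 0.165 CPM after dissociation, and Nrg4, an adipose-derived growth factor (edgeR -0.69, SE 0.25, adjusted p = 0.0461). Rbp4, the retinol carrier, was higher (edgeR 0.86, SE 0.13, adjusted p = 0.000821), and Apln, the peptide apelin, was not called. Lep lies under the level set for naming and was chosen after its values were seen.

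Of 14 droplet-coat and lipolysis genes, members included, 9 were lower, 3 higher and 2 not called (median -0.51), against 31.3% lower and 27.9% higher over all genes. Cidea, the relative of Cidec found in brown fat, fell by 4.28 on the log2 scale (edgeR, SE 0.43, adjusted p = 0.00013), from 2.31 to 3.03 CPM. Pnpla3 fell by 3.10 (edgeR, SE 0.63, adjusted p = 0.00415). Plin2, the perilipin of most non-fat cells, rose by 1.15 (edgeR, SE 0.16, adjusted p = 0.000744), and Hilpda, a lipolysis inhibitor induced by hypoxia, rose by 2.22 (edgeR, SE 0.10, adjusted p = 3.52e-06).

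The counts of the next lists also stand beside 31.3% lower and 27.9% higher over all genes. Of 13 genes of fatty acid uptake and the lipoprotein lipase system, 6 were lower, 3 higher and 4 not called (median -0.17). Lpl rose beside Lipg, the endothelial lipase (1.59), while Slc27a1, a fatty acid transporter (-1.16), Fabp3, the heart-type carrier (-0.95), and Acsl1, an acyl-CoA synthetase (-0.90), fell. Of 17 genes of lipogenesis and triglyceride synthesis, 9 were lower, 1 higher and 7 not called (median -0.37); Thrsp (-1.67), Elovl6 (-1.17) and Gpam (-1.12) fell and Dgat1, a triglyceride-forming enzyme, rose (1.60).

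The counts that follow stand beside 27.9% of all genes higher and 31.3% lower, and several lie near those shares. Of 10 tested adipogenic regulators, 5 were higher, 3 lower and 2 not called (median 0.45): Cebpb (3.25), Ebf2 (1.97) and Ppargc1a (1.63) rose and Klf15 fell (-1.07). Of 8 tested genes of the insulin and catecholamine response, 3 were higher, 3 lower and 2 not called (median 0.04). Slc2a4, the insulin-responsive glucose transporter of fat and muscle, fell by 3.77 from 141 to 155 CPM, Adrb3, the beta-3 adrenoceptor of fat and of the detrusor, fell by 2.06, Cav1 fell by 1.08 and Irs2 rose by 2.27. Of 9 tested carbonic anhydrases, 2 were lower (Car14, -2.59; Car5b, -0.52), 1 was higher (Car13, 0.62) and 6, Car3 among them, were not called. All these log2 changes are dissociated minus intact from edgeR, and each named change had an adjusted p below 0.05.

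The droplet libraries were then read for the classes of cell in which each gene was found. Cells were clustered per library with the 9 members left out, and clusters were named from fixed markers, so that "fibroblast-like" means a cluster carrying fibroblast markers. No cluster of 139 was named adipocyte-like; 7 clusters in 5 libraries met the marker conditions for adipocytes but were named blood endothelial-like (4), smooth muscle-like (2) or urothelial-like (1). Across the 8 droplet libraries, Adipoq, Plin1, Cidec, Retn and Cfd together gave only 6 to 66 UMIs per library. Adipoq had 0 UMIs in the 3-month male library, which allows up to 0.226 CPM by a floor of 3 counts, and 0 UMIs in the 22-month male library, which allows up to 0.116 CPM; the nuclei held 3 UMIs.

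UMIs of these 5 genes seldom shared a barcode. Barcodes with at least 2 of the 5 genes numbered 2 in the 22-month male library and 0 in each of the other droplet libraries, and none had 3. In the 3-month male library, 16 of 18 Retn UMIs came from 1 mesothelial-like cell. In the nuclei, Cfd gave 17 UMIs, 4 of them in urothelial-like and 1 in fibroblast-like nuclei, and 2 of 3 Adipoq UMIs were in urothelial-like nuclei. Cidec UMIs lay in urothelial-like cells for 3 of 3 in each 12-month cell library and 4 of 5 at 24 months. In the 22-month male library that held for 2 of 12. The sections held 10 and 8 UMIs of the 5 genes at 22 months and 3 and 3 at 14 months, with no spot holding 2 of the genes.

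In the droplet libraries Fabp4 was highest in blood vessel cells. The blood endothelial-like class held 3480 CPM (95% Poisson interval 3258 to 3714; 152 cells) in the 22-month male library, 1645 CPM (150 cells) in the 3-month male library and 2616 CPM (23 cells) in the 24-month library. It held 5937 CPM in the detrusor-only library (364 cells), 3214 CPM in the detrusor-enriched library (284 cells) and 541 CPM in nuclei (101 nuclei). This was the class with the highest level in 6 of 8 libraries. The others were the 12-month cell libraries, where no cluster was named blood endothelial at the main settings. Intervals and floors here cover counting error only.

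In 12-month library 1 the highest class was a cluster of 36 smooth muscle-like cells at 566 CPM, which also held 3564 CPM of the blood endothelial list and had Aqp1, Tm4sf1 and Lrg1 among its leading genes. Under other settings that library had cells named blood endothelial-like, 25 with finer clustering and 26 with doublets kept, so this ranking depends on the clustering. In 12-month library 2 the highest named class was urothelial-like at 73.2 CPM, below an unnamed cluster of 150 cells at 88.7 CPM. Within the detrusor-only endothelium, a cluster led by Sox17 and Ptprb, genes of arterial and capillary endothelium, held 8117 CPM of Fabp4 (267 cells), and a cluster led by Selp and Lrg1, genes of venous endothelium, held 2798 CPM (97 cells). Requiring 1000 UMIs per cell lowered the endothelial level to 355 CPM in the 3-month male library and to 244 CPM in nuclei. The latter is below the 327 CPM of urothelial-like nuclei at the main settings, so the first rank of endothelium in nuclei is not firm.

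The share of endothelial cells with the signal differed between libraries. In the 22-month male library 27.0% of them had a Fabp4 UMI (95% binomial interval 20.1% to 34.8%; median 1591 UMIs per cell), against 4.69% of fibroblast-like cells (median 2232), and 1 cell held 156 UMIs. In the detrusor-only library 73.9% had one (median 5824), against 12.8% of fibroblast-like cells (median 9046.5). After thinning to 1000 UMIs per cell, these shares were 23.9% against 2.08% and 70.0% against 1.86%; 134 of 152 and 320 of 364 endothelial cells were deep enough.

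Pericyte or vascular mural-like cells, the contractile cells around small vessels, came next in 3 libraries: 456 CPM in the 22-month male library (100 cells), 1790 CPM in the detrusor-only library (163 cells) and 731 CPM in the detrusor-enriched library (103 cells). The 19 such cells of the 3-month male library, under the minimum for a class level, held 0 Fabp4 UMIs. In the detrusor-only library 96.3% of them had a Fabp4 UMI, and at most 48 UMIs were in 1 cell. Lymphatic endothelial-like cells were low, at 24.7 CPM in the detrusor-only and 33.7 CPM in the detrusor-enriched library. Fibroblast-like cells held 18.8 to 46.4 CPM in cell libraries and 98.7 CPM in nuclei.

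Urothelial-like cells held little Fabp4 in cell libraries: 38.7, 26.0, 19.1, 73.2 and 29.1 CPM in the 22-month male, 3-month male, 12-month 1, 12-month 2 and 24-month libraries. The detrusor-enriched library held 64.9 CPM and the nuclei 327 CPM. Fibroblast-like cells, a class not known for Fabp4, held 23.0, 35.2, 18.8, 46.4 and 24.9 CPM in the same 5 whole-bladder libraries, 19.2 CPM in the detrusor-enriched library and 98.7 CPM in nuclei. The urothelial-like level was thus below the fibroblast-like level in the 3-month male library and above it in the others. These differences were not tested. The cluster with the most uroplakin had the highest Fabp4 of the urothelial-like clusters in 6 of 7 libraries: in 12-month library 2 it held 117 CPM against 58.1 CPM in the cluster with the least uroplakin, and in nuclei 476 against 163 CPM. The unnamed cluster of 12-month library 2, led by Upk3bl and Gsdmc2, is not among these clusters: it had less uroplakin (2489 against 4027 CPM in the lowest named one) and 88.7 CPM of Fabp4. The exception was the detrusor-enriched library, where a cluster of low-UMI cells held 277 CPM. The 2 male libraries had only 2 urothelial-like clusters each, with uroplakin at 8303 and 8051 CPM (3 months) and 9009 and 7460 CPM (22 months). Fabp4 there was 30.3 against 15.4 and 41.9 against 37.1 CPM. In the 12-month and 24-month cell libraries Fabp4 was lowest (10.4, 27.1 and 18.4 CPM) outside the cluster with the least uroplakin (20.9, 58.1 and 19.0 CPM).

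Car3 was highest in fibroblasts of most libraries. The fibroblast-like class held 14453 CPM in the 3-month male library, 6371 CPM in the 22-month male library, 1901 and 767 CPM in the 12-month libraries, 2609 CPM at 24 months and 2207 CPM in the detrusor-enriched library. It held 228 CPM in nuclei and 2.52 CPM in the detrusor-only library (71 UMIs in 3140 cells, 68 of them in 1 cell). Fibroblast-like cells were the highest named class in 6 of 8 libraries. In nuclei (266 CPM) and in detrusor-only cells (204 CPM) it was the mesothelial-like class, the cover of the outer surface. The rank in nuclei is not firm, since it rests on 32 mesothelial-like UMIs against 90 fibroblast-like UMIs at 228 CPM. In the 2 male libraries every other class also held Car3. The median over other named classes, the mesothelial-like one left out, was 537 CPM at 22 months and 837 CPM at 3 months. It was 1.63 to 21.2 CPM in the 3 mixed-sex whole-bladder libraries. The mesothelial-like class held 979 CPM in the 22-month and 1371 CPM in the 3-month male library.

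Within the fibroblast-like class Car3 was uneven. In each of the 7 libraries with 2 or more fibroblast-like clusters, the cluster highest in Cxcl14, a chemokine of stromal and epithelial cells, was also highest in Car3. There it held 23072 CPM (1167 cells) against 534 CPM in the cluster highest in Pi16 and Mfap5, markers of adventitial fibroblasts, in the 3-month male library, and 16627 against 598 CPM in the 22-month male library. The same pair read 3908 against 21.4 and 2302 against 15.7 CPM in the 12-month libraries, 5209 against 21.7 CPM at 24 months and 4664 against 14.1 CPM in the detrusor-enriched library. In the detrusor-only library, whose fibroblasts held at most 176 CPM of Cxcl14, it read 17.8 CPM against 0, nearly all from the 1 cell mentioned.

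**Figure D2:**
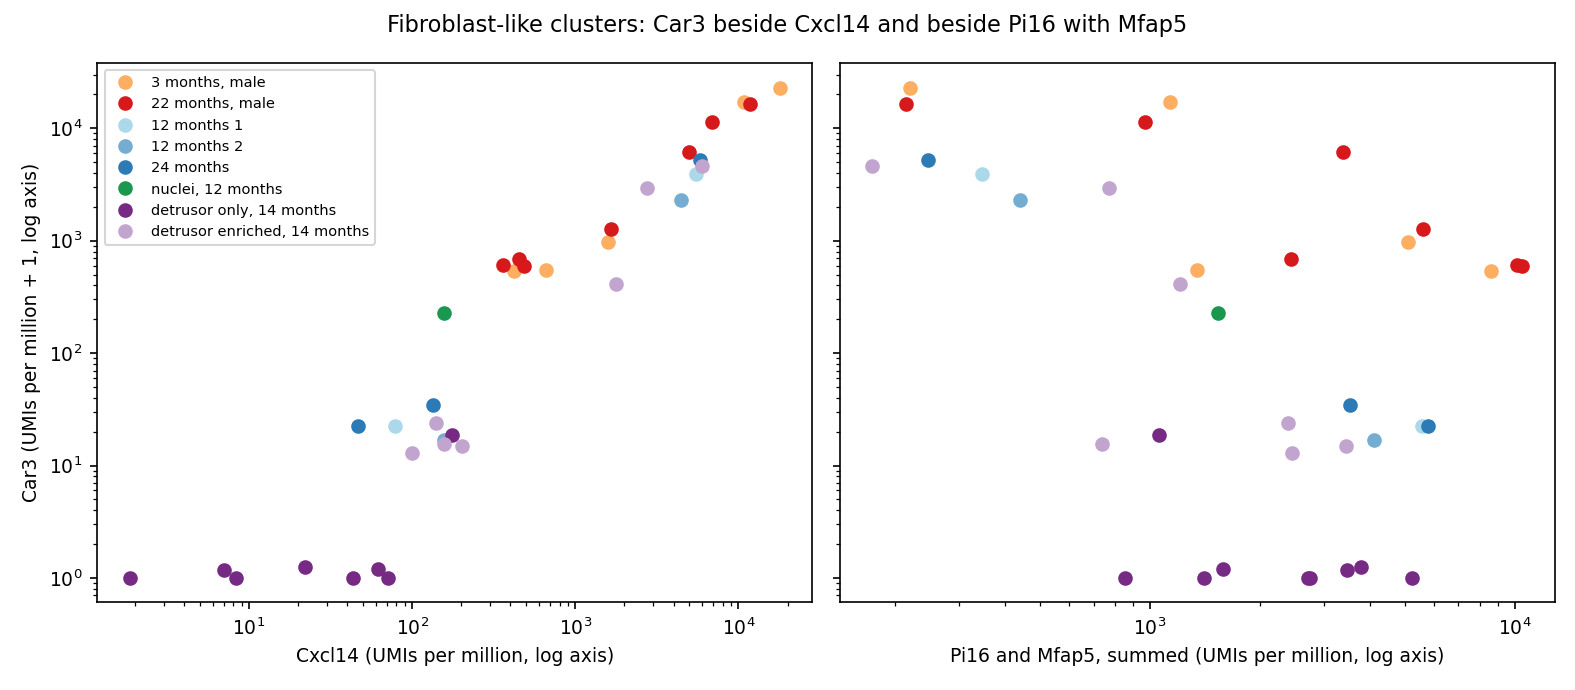
Car3 in each fibroblast-like cluster (CPM + 1, log axis) against Cxcl14 (left) and against Pi16 with Mfap5 (right), both in CPM on log axes; each point is 1 cluster, coloured by library. The clusters highest in Cxcl14 hold the most Car3 (23072 CPM in the 3-month male library). In the left panel the detrusor-only clusters lie at the bottom left with both genes low, whereas in the right panel they reach 5208 CPM of Pi16 with Mfap5.

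The 22-month male library also held 1 unnamed cluster of 683 cells at 17352 CPM of Car3, with a UMI in 99.6% of cells (median 4099 UMIs). T or NK-like cells of that library had a Car3 UMI in 47.0% of cells (median 1243 UMIs; 460 CPM), and after thinning to 1000 UMIs the shares were 99.0% and 33.7%. It carried markers of fibroblasts and of smooth muscle together (10022 CPM of Cxcl14 and 7539 CPM of the smooth muscle list) and is counted in neither class. With finer clustering the fibroblast-like level of that library was 3020 CPM, and requiring 1000 UMIs lowered that of the 3-month male library to 8203 CPM.

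Lpl was highest in myeloid classes. Macrophage or monocyte-like cells held 335 CPM in the 22-month male library, 56.7 CPM in the 3-month male library, 71.7 and 83.1 CPM in the 12-month libraries and 405 CPM at 24 months. They held 320 CPM in nuclei, 272 CPM in detrusor-only and 244 CPM in detrusor-enriched cells. They were the highest class in 5 of 8 libraries, and dendritic-like cells in the other 3: 693 CPM in the detrusor-only, 123 CPM in the first 12-month and 103 CPM in the 3-month male library. The clusters under that name differed. The detrusor-only cluster (63 cells) was led by Il1b, Tnip3, Lyz1, Retnla and Ccr2 and had no dendritic marker among its top 10 genes, and the main cluster of 12-month library 1 (111 cells) was led by Retnla, Il1b and Cd209a; both also met the conditions for macrophages or monocytes. Dendritic-like clusters of the 22-month male and 24-month libraries, with Ccl17 or class II genes among their leading genes, gave 22.4 and 9.29 CPM, so the dendritic-like levels are not compared between libraries. With finer clustering the macrophage or monocyte-like level of 12-month library 1 was 418 CPM, so its order against the dendritic-like class is not firm. Pericyte or vascular mural-like cells held 200 CPM in the 22-month male library (32 UMIs), more than the fibroblast-like cells there, 108 CPM in the detrusor-only and 55.1 CPM in the detrusor-enriched library.

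Macrophages were not uniform in Lpl. In the 22-month male library a cluster of 67 cells led by Retnla and Lyz1 held 1119 CPM, against 134 CPM in the 278 cells led by C1qa, C1qc and C1qb. Some other macrophage levels depend on the cell filters: 137 CPM at 24 months with doublets kept, and 92.1 CPM at 3 months with 1000 UMIs required. Fibroblast-like cells held 44.7 to 153 CPM in cell libraries and, being many, gave 72.9% of all Lpl UMIs in the 22-month male library. There the fibroblast-like cluster highest in Lpl (440 CPM) was led by Sult1e1, Cxcl13 and Penk.

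Plin4 was highest in smooth muscle-like cells in 3 of 8 libraries, the nuclei and both detrusor preparations. Smooth muscle-like cells held 143 CPM in nuclei (1404 nuclei, 271 UMIs), 70.8 CPM in the detrusor-only library and 89.8 CPM in the detrusor-enriched library. Urothelial-like cells held 6.03 to 11.2 CPM in cell libraries and 32.3 CPM in nuclei, and fibroblast-like cells 1.63 to 13.3 CPM in cell libraries and 27.9 CPM in nuclei. Among whole-bladder cells, the 36 smooth muscle-like cells of 12-month library 1 held 1 Plin4 UMI; that cluster had 10373 CPM of the smooth muscle list beside its endothelial RNA. A cluster of 16 smooth muscle-like cells at 24 months, under the minimum for a class level, had 34197 CPM of the list and 3 Plin4 UMIs (35.7 CPM). In the 12-month and 24-month cell libraries the urothelial-like class was highest (6.03 to 7.83 CPM), and in the 3-month and 22-month male libraries the highest class rested on 4 UMIs.

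**Figure D3:**
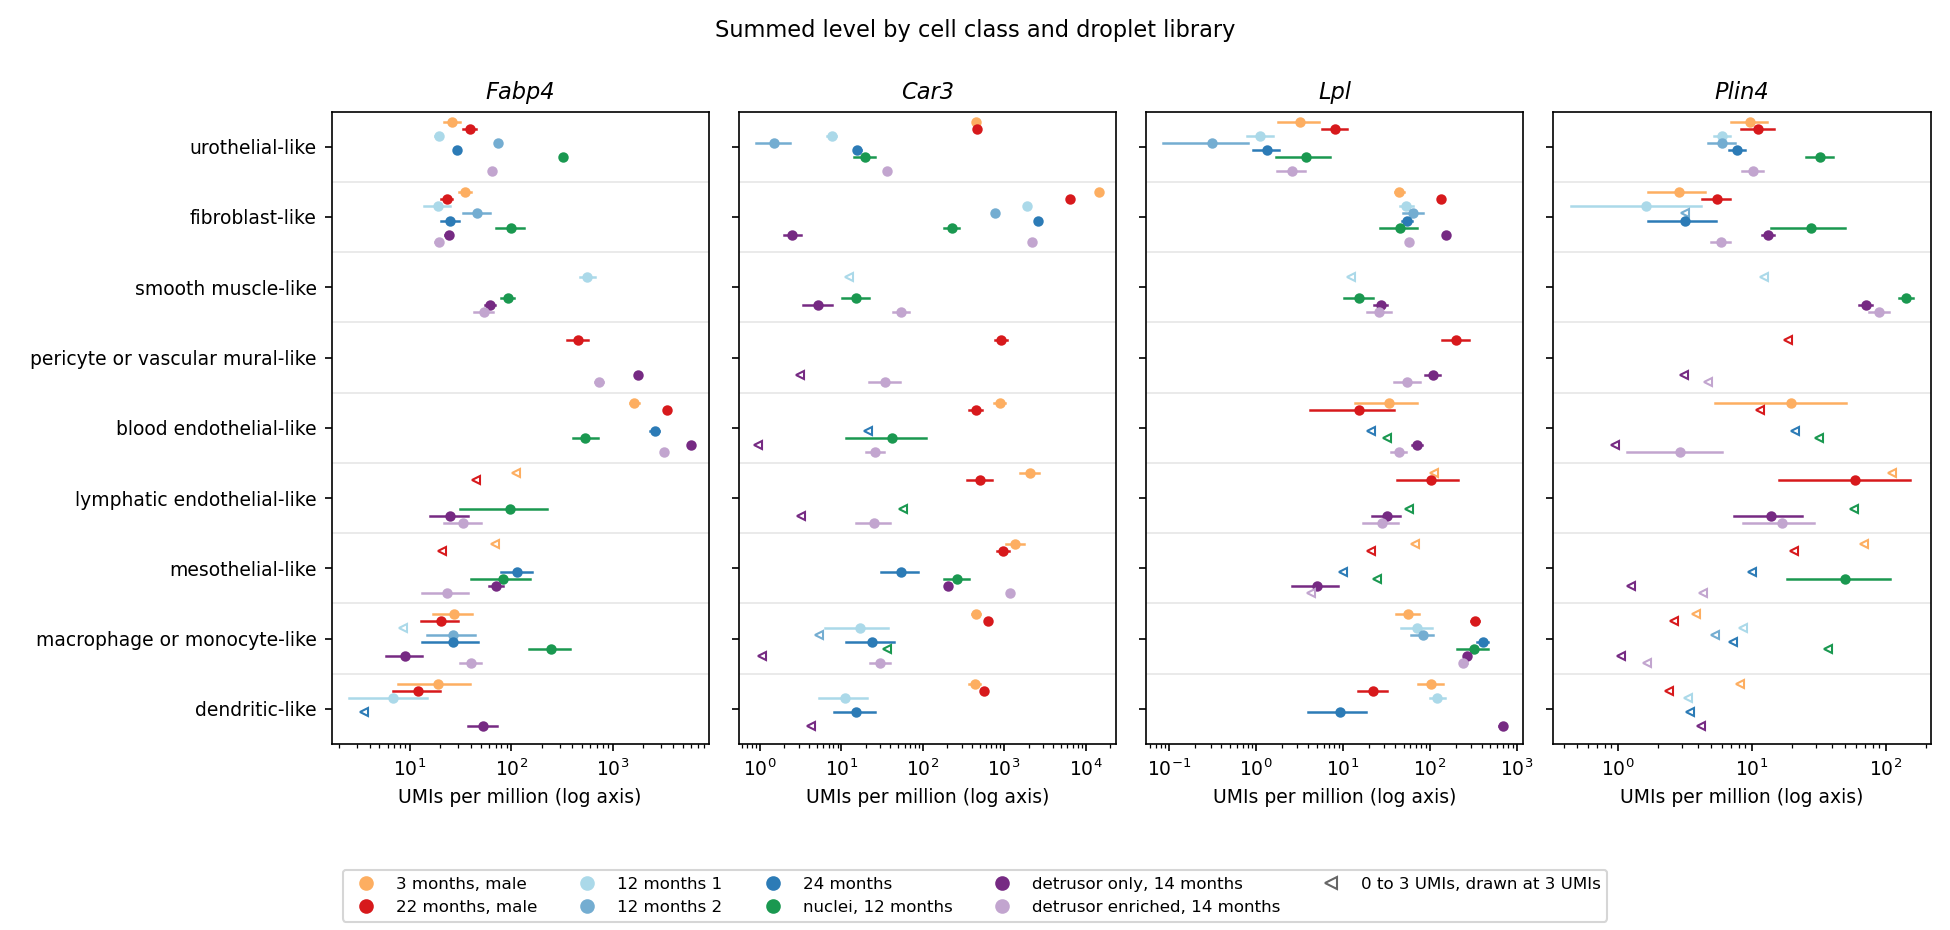
Level of Fabp4, Car3, Lpl and Plin4 in CPM (log axis) by named cell class, with 1 point per droplet library and class of at least 20 cells, bars for the 95% Poisson interval, and open triangles at the level of 3 UMIs for classes with 0 to 3. Fabp4 peaks in blood endothelial-like cells of 6 of 8 libraries (541 CPM in nuclei, where the rank is not firm, to 5937 CPM). Car3 peaks in fibroblast-like cells of 6 of 8 libraries, Lpl in the myeloid classes, and Plin4 in smooth muscle-like cells of 3 libraries (70.8 to 143 CPM).

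On the tissue sections Fabp4 was high in the regions rich in urothelial RNA. Spots were grouped by expression into regions, and the region richest in uroplakin RNA held 2688 and 4396 CPM of Fabp4 in the 22-month sections and 2274 and 1541 CPM in the 14-month sections. The region richest in smooth muscle RNA held 214, 285, 181 and 140 CPM, a level 11 to 15.4 times lower. Regions richest in the blood endothelial list held 1063, 1447, 732 and 379 CPM. Spots hold several cells and share capture area and depth, so these values describe regions and not cell types.

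Across spots, Fabp4 went with the urothelial list (Pearson r 0.557 to 0.759 over the 4 sections of 937 to 1317 spots) and against the smooth muscle list (-0.783 to -0.626). Its correlation with the blood endothelial list was 0.0237 to 0.0954. Fabp4 also went with the number of UMIs in a spot (0.529 to 0.749), and urothelial spots are the deep ones: the richest uroplakin region of 22-month section 1 had a median of 67143 UMIs against 13964 in its muscle region. The part of depth was not tested.

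The genes most like Fabp4 across spots were Sptssb, a subunit of the sphingolipid-making enzyme (median r 0.722 over 4 sections, of 12069 genes), Fmo5, a flavin monooxygenase (0.710), Acer2, a ceramidase (0.71), Uchl1 (0.696) and the uroplakin Upk1b (0.691). Sprr1a, Gstm1 and Snx31 completed the 8. By Spearman's rho 5 of the 8 were again listed. Spots share libraries and depth, so these values carry no p.

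**Figure D4:**
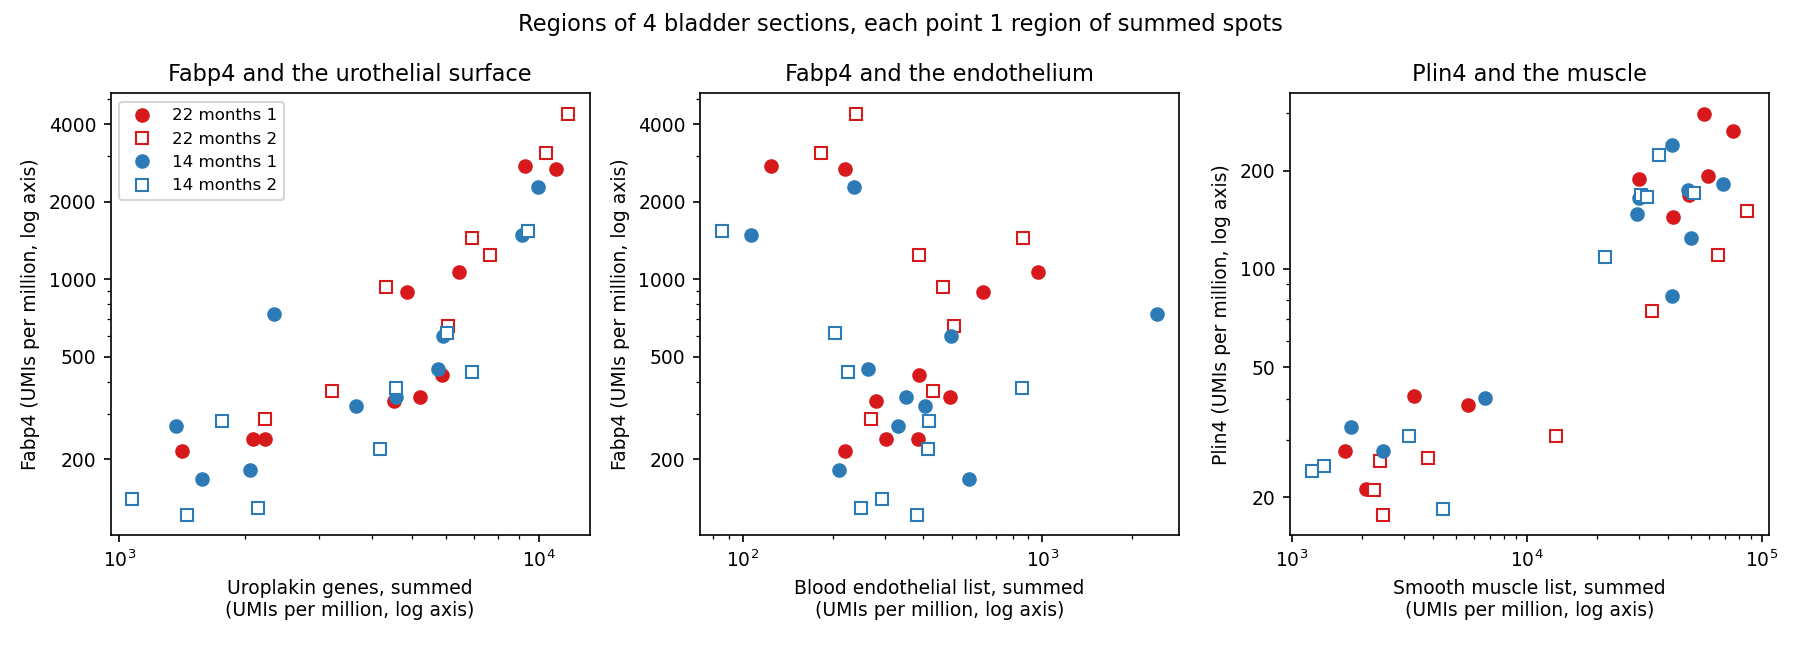
Regions of the 4 sections, each point the summed spots of 1 region, on log axes of CPM: Fabp4 against the summed uroplakin genes (left), Fabp4 against the summed blood endothelial list (middle) and Plin4 against the summed smooth muscle list (right). Fabp4 climbs with uroplakin, to 4396 CPM in 22-month section 2. The region with the most endothelial RNA (2423 CPM, in 14-month section 1) holds 732 CPM of Fabp4. In that section the region richest in muscle RNA holds 181 CPM and the one richest in uroplakin 2274 CPM. Plin4 is high in regions rich in muscle RNA.

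Plin4 in the sections was higher in regions rich in muscle RNA than in those rich in uroplakin. The region richest in smooth muscle RNA held 265, 150, 182 and 170 CPM and the region richest in uroplakin 21.1, 21.1, 27.7 and 24.1 CPM, in the order 22-month 1, 22-month 2, 14-month 1 and 14-month 2. In 3 of 4 sections another region held more Plin4 than the one richest in muscle RNA: 299 CPM in 22-month section 1 (led by Apod, Errfi1 and Car14), 239.6 CPM in 14-month section 1 (Fabp3, Rgs2 and Adora2b) and 223 CPM in 14-month section 2 (Fabp3, Actc1 and Chrm2). Across spots Plin4 went with the smooth muscle list (r 0.472 to 0.667), and the gene most like it was Smtn, a smooth muscle actin-binding protein (median r 0.539). Car3 was highest in regions with Spon1 among their 3 leading genes, at 673, 312, 394 and 579 CPM. The genes most like Car3 were Cxcl14 (0.619) and Krt15, a keratin of basal urothelium (0.60). By Spearman's rho 6 of its 8 genes were again listed, with Krt15 first (0.613), but Cxcl14 and Spon1 were not. Across spots Car3 went with the urothelial list (r 0.341 to 0.568) and against the smooth muscle list (-0.694 to -0.468), and its correlation with the fibroblast list was -0.0271 to 0.232, although fibroblast-like cells held the most Car3 in most cell libraries. Against the number of UMIs in a spot, r was 0.28 to 0.567 for Car3 and -0.487 to -0.0161 for Plin4, and the part of depth was not tested. No gene exceeded a median r of 0.235 with Lpl.

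The genes most like Fabp4, Plin4, Car3 and Lpl across spots were then read in the bulk contrast, as a description. Of the 8 genes most like Fabp4, 6 were lower after dissociation and 2 not called (median -1.04), against 31.3% lower over all genes. Acer2 fell by 2.34, Snx31 by 1.54, Upk1b by 1.29 and Sptssb by 0.77, while Fabp4 itself fell by 2.08. This reading depends on the measure, because Acer2, Snx31 and Upk1b were not among the 8 by Spearman's rho. Gsta4 (0.07) and S100a6 (0.11), which that measure listed with Krt18 instead, were not called in bulk. Of the 8 genes most like Plin4, all 8 were lower (median -3.22), from P2rx1, the purinergic receptor of bladder muscle (-4.82), to Sparcl1 (-0.61). Of the 8 most like Car3, 5 were higher and 3 not called (median 0.59), against 27.9% higher over all genes. Among them Spon1 stood at 1.07 and Cxcl14 at 0.76, both absent from the 8 by Spearman's rho. Of the 8 most like Lpl, whose correlations were weak, 7 were higher and 1 not called (median 0.84). The lists for Plin4 and Lpl and the reading in bulk were chosen after the values were seen.

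**Figure D5:**
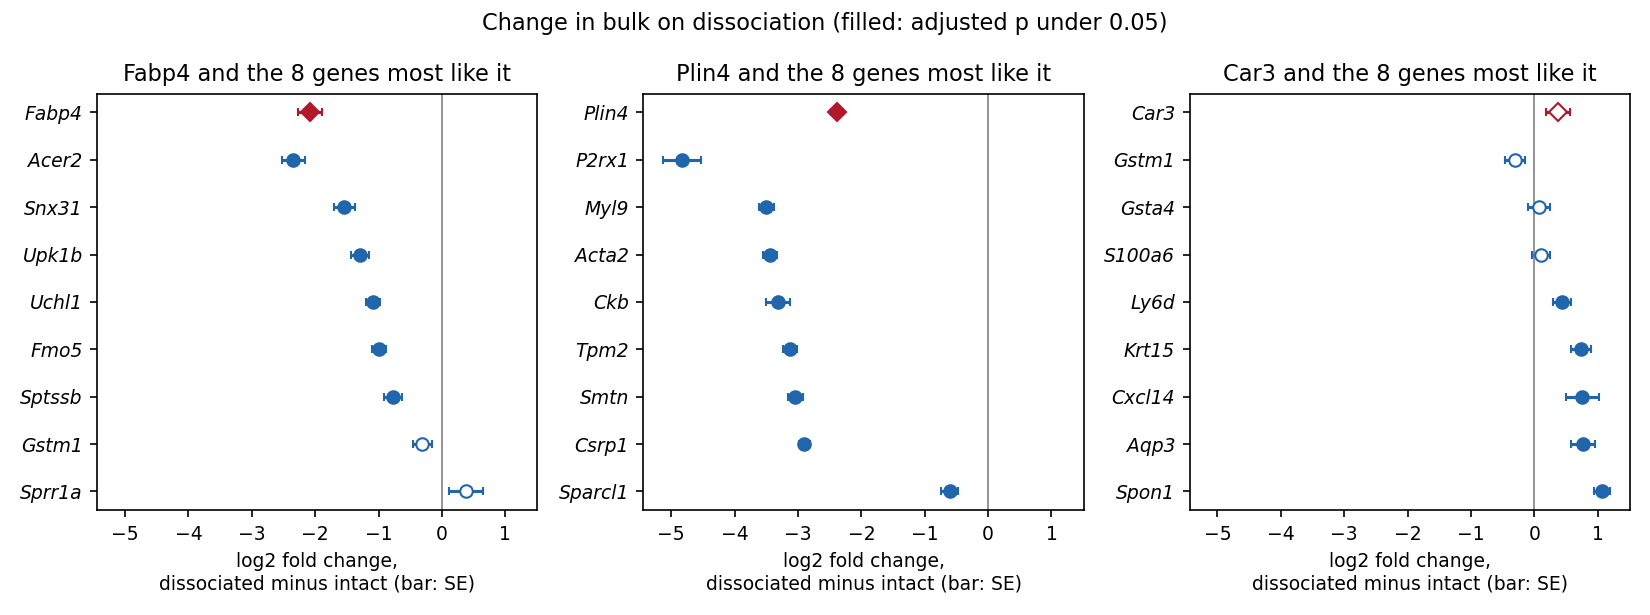
Bulk log2 fold change (dissociated minus intact, with SE bars) of Fabp4, Plin4 and Car3 (red diamonds) and of the 8 genes most correlated with each across section spots (blue circles); filled symbols have an edgeR adjusted p below 0.05. The neighbours of Plin4 all lie below 0, as does Plin4 at -2.38, whereas those of Car3 lie from -0.31 to 1.07.

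Age was compared in the sections, 22 against 14 months, 2 against 2. Fabp4 measured 1485 and 2111 CPM at 22 months and 972 and 648 CPM at 14 months (1798 ± 443 against 810 ± 229, SD, n = 2 each). Its groups did not overlap, but the change of 1.22 was not called (edgeR, SE 0.30, adjusted p = 0.196). Lpl measured 10.3 and 13.5 CPM at 22 months and 26.7 and 23.0 CPM at 14 months, lower in both older sections (edgeR -1.0, SE 0.19, adjusted p = 0.126). DESeq2 called Lpl lower (adjusted p = 0.00163), as did edgeR with library size alone (adjusted p = 0.0456) or with no filter (0.0393). Without 22-month section 1, Lpl was not called (adjusted p = 0.0797) and Plin4 was called lower (-0.80, adjusted p = 0.0417). That fit leaves 1 older section, the one with the lowest Plin4 (49.5 CPM), and assumes that it varies like the 14-month pair.

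None of the 4 members tested in sections was called in edgeR, where 0% of 14974 genes was called; 2 of the 4 had an unadjusted p below 0.05, as did 2481 of all genes, and DESeq2 called 426 genes. The libraries of the ages did not overlap in 50.8% of genes, and in 32.5% the older sections were the lower ones. The summed urothelial list was 15943 and 16583 CPM at 22 months and 15185 and 13898 CPM at 14 months, and the macrophage or monocyte list 996 and 1170 against 1303 and 1584 CPM; their part in the Fabp4 and Lpl values was not tested. Plin4 (49.5 to 95.7 CPM) and Car3 (126 to 283 CPM) overlapped between ages, with changes of -0.29 and 0.34 (edgeR adjusted p = 0.69 and 0.741). The 5 adipocyte-marker members had too few UMIs to test.

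Age was also compared in whole-bladder cells, 22 and 24 months against 3, 12 and 12 months, within the fibroblast-like and urothelial-like classes, with the sex mix as a term. None of the 4 tested members was called in either class, and none had an unadjusted p below 0.05 (edgeR adjusted p = 0.999 for each). In these fits 0.00852% of 11740 genes (1 gene; 279 had an unadjusted p below 0.05 and DESeq2 called 5) and 0% of 12603 genes (335 had an unadjusted p below 0.05 and DESeq2 called 2) were called. The ages did not overlap for Plin4 in fibroblast-like cells and overlapped in every other test of a member in these classes. The Plin4 gap was a near tie, with 13 UMIs in the 24-month library and 3 in 12-month library 2 (class levels of 3.18 and 3.16 CPM). Among all genes, 6.35% had no overlap in fibroblast-like cells (2.9% with older libraries lower) and 5.46% in urothelial-like cells (2.51%). The spread was wide: Car3 in fibroblast-like cells was 4552 ± 2603 CPM (SD, n = 2) in older and 5758 ± 7597 CPM (SD, n = 3) in younger libraries. Without the 24-month library, Lpl in fibroblast-like cells was called higher (edgeR 1.67, adjusted p = 0.00082). With the sex term that fit compares 1 library with 1, the 22-month male (134.7 CPM) with the 3-month male library (44.9 CPM), and takes its spread from the 12-month libraries, so the call is no replicated result.

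The nuclei library was set against the 5 whole-bladder cell libraries within a class; it is a single library, assumed to vary like the cell libraries. The p-values therefore rest on the spread of cell libraries of other ages and sex mixes, and the preparation and the library cannot be told apart. In fibroblast-like cells Plin4 stood at 28.7 CPM in the nuclei library (11 UMIs) and 3.39 ± 1.40 CPM in cells (SD, n = 5), a fitted difference of 2.16 (edgeR, SE 0.63, adjusted p = 0.041). This was the 1 member called of 4 tested, where 24.2% of 12359 genes were called and 8.33% were higher. The call was lost (adjusted p up to 0.0709) with no filter on low counts, with finer clustering and without any 1 of the 3-month, 12-month or 24-month libraries. Car3 was 235 CPM in nuclei and 5374 ± 5671 CPM in cells (edgeR -5.28, SE 1.74, adjusted p = 0.0658). Fabp4 was 102 against 31.0 ± 11.8 CPM and was not called (edgeR 0.84, adjusted p = 0.277). The nuclei lay outside the range of the cell libraries for Plin4, Car3 and Fabp4, as they did for 73.5% of all genes.

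In urothelial-like cells Fabp4 was 337 CPM in nuclei and 39.4 ± 23.2 CPM in cells (SD, n = 5; edgeR 1.84, SE 0.73, adjusted p = 0.0931), and Plin4 33.3 against 8.53 ± 2.13 CPM (edgeR 0.82, SE 0.27, adjusted p = 0.0519). Both nuclei values lie above every cell library, and 74.1% of genes had no overlap in either direction. None of 4 members was called by edgeR, where 35% of 13262 genes were called, although 2 of the 4 (and 6107 of all genes) had an unadjusted p below 0.05. Without 12-month library 2, Fabp4 was called (2.40, adjusted p = 0.00646). Macrophage or monocyte-like nuclei held 246 CPM of it (20 UMIs). Smooth muscle RNA was spread over all nuclei, at 11566 CPM of the smooth muscle list in the fibroblast-like and 12437 CPM in the macrophage or monocyte-like cluster; the part of RNA shared among nuclei in the Plin4 and Fabp4 values was not tested.

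Scaling matters for this contrast. With library size alone, the median of all genes moved from -0.32 to 0.57 in fibroblast-like cells and from -0.01 to 1.14 in urothelial-like cells. The share of called genes that were higher in nuclei moved from 34.4% to 84.6% and from 45.4% to 89.6%. Under that scaling Fabp4 was called higher in nuclei in both classes (1.75 and 3.10), above the moved medians. Blood endothelial-like nuclei were not tested, since only 2 cell libraries had 50 such cells; the nuclei level of 541 CPM lies below the 3480 and 1645 CPM of those libraries.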

How the data were processed

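Bulk RNA, droplet and spatial tables hold the authors' deposited counts, reads per gene for bulk libraries and UMIs per gene and barcode for the others. The submitters' processing notes name bcl2fastq, Cell Ranger, Space Ranger, Subread, featureCounts and mm10, with no versions. Whether counting used strand is not given in the sources used here, so antisense and overlapping genes cannot be told apart.

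The members and gene lists were chosen with earlier results of these data known. Barcodes under 500 UMIs or above 20% mitochondrial counts were dropped, and predicted doublets (8 to 660 per droplet library) were removed. The tables of the 2 male whole-bladder libraries list no mitochondrial counts, so that filter did nothing there. Each library was clustered without the members (scanpy 1.11.5, 2000 variable genes, 30 components, 15 neighbours, Leiden resolution 1), and clusters were named from marker lists by a rule settled after the clusters were seen, so a rebuilt name can differ from the submitters' own. Classes of at least 20 cells have a level and of at least 50 a test. Counts were summed per library and class and tested with edgeR 4.0.16 (TMM, filterByExpr, robust quasi-likelihood, two-sided, Benjamini-Hochberg over all genes tested), with DESeq2 1.42.0 as an alternative (R 4.3.3). The scripts were tested on simulated data.

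From each list, up to 4 non-members with the largest called change and a mean of at least 1 CPM are named. Genes like a member are the 8 with the highest median Pearson correlation over spots, among genes with at least 50 UMIs in every section. Alternatives were other scalings, no filter, leaving out libraries, cell filters, doublets kept and Leiden resolution 2. Blood endothelial-like nuclei were not tested against cells, since too few libraries had enough of them.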

Additional observations from a re-analysis of the deposited data

How the results depend on the processing

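In bulk RNA the number of members lower after dissociation was 7 under all 11 alternatives. The number higher was 2 with DESeq2 and 2 with the replicate block, where Car3 joined Lpl (adjusted p = 0.00753 in edgeR with the block), and 1 to 2 when 1 library was left out. Libraries of the same number had correlations of their deviations of 0.277, 0.372 and -0.0496 over 16773 genes, so the numbers are not shown to pair them; not every library correlated best with its own number, and the block called 10118 genes against 9798. In sections the number lower at 22 months was 1 with library size alone, 1 with DESeq2 and 1 with no filter, and 0 to 1 when 1 section was left out. With 1 section left out, Car3 ran from -0.32 (without 22-month section 1) to 0.78, and Plin4 from -0.80 to 0.069 (without 22-month section 2).

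For fibroblast-like nuclei against cells, the number of members higher was 2 with library size alone, 0 with no filter, 0 at Leiden resolution 2 and 0 to 1 with 1 library left out. The number lower was 1 with DESeq2 (Car3, adjusted p = 0.00826), 1 with only 12-month cells (Lpl), 1 with at least 1000 UMIs (Car3) and 0 to 1 with 1 library left out. For urothelial-like nuclei the number higher was 1 with RLE size factors, 2 with library size alone, 1 with only 12-month cells, 1 with doublets kept and 0 to 1 with 1 library left out. Lpl there turned to 0.49 with library size alone, ran from -0.77 to 0.21 (without the 22-month male library) with 1 library left out, and turned to 0.69 with only 12-month cells, where Car3 turned to 0.46. For age in fibroblast-like cells the number higher was 0 to 1 with 1 library left out. With 1 library left out, Lpl there ran from -0.14 (without the 22-month library, and again without the 3-month library) to 1.67, and Car3 from -1.10 (without the 24-month library; -0.34 without 12-month library 2) to 0.92. Car3 turned to -0.27 with no sex term and -0.22 at Leiden resolution 2. Fabp4 in urothelial-like cells ran from -0.70 to 0.69 (without the 24-month library; 0.64 without 12-month library 2). The cause of these changes was not tested.

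Of 142 class levels recomputed, 135 stayed within 1.5 times the value given. Thinning to 1000 UMIs moved 37 shares (11 were not moved) by more than their interval. The likeness of the summed Adipoq, Plin1 and Cidec, and of Adipoq alone, was not run, because they had under 50 UMIs in every section, nor were the alternatives for blood endothelial-like nuclei. Depth limits the precision of the adipocyte-marker members in droplets and sections, whose values rest on few UMIs. The floor of 3 counts in the sections was 0.0937 to 0.137 CPM. Adipoq stood at 5.22 to 28.0 CPM in intact bulk RNA. The sections are UMI counts from males and the bulk libraries read counts from females of another age, so these values cannot be compared directly. The part of depth in the low section counts was not tested.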
